A study of Mus musculus with 16 samples.

Results

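The transcriptome of wild-type CD4+ T cells was compared before and after 2 days of culture in Treg conditions. The comparison used 8 of the 16 libraries of the study, chosen by their labels alone: 4 of naïve cells (Tn) and 4 of cultured cells (Treg), numbered 1 to 4 in each state. Tn cells were splenic CD4+ T cells of WT (C57BL/6) mice, selected magnetically by naïve surface markers and lysed without culture. Treg cells were WT CD4+ T cells kept for 48 h with antibodies to CD3 and CD28, recombinant human TGF-beta and recombinant mouse IL-2. Every WT group carried an intact Aim2 gene, and the other 8 libraries of the study were the same states from Aim2-/- mice on the same background. The age of the mice was not given in the sources used here, and no label says whether the numbered libraries came from separate mice, so p-values measure the spread between these libraries, which may be partly technical. No library of stimulated cells without TGF-beta was part of the design, so stimulation, time in culture, IL-2 and TGF-beta cannot be told apart as sources of a change. In bulk RNA, a change in the share of cells that express a gene and a change of RNA per cell cannot be told apart either.

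Naïve CD4+ T cells are small resting cells that circulate through lymphoid organs and are kept alive by IL-7. Engagement of the T cell receptor (TCR) with CD28 drives them to grow, to switch to biosynthetic metabolism and to divide. TGF-beta and IL-2 present at that time induce FOXP3, the transcription factor that defines regulatory T (Treg) cells, through SMAD proteins and STAT5.

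Values are CPM (counts scaled to the library total and by TMM factors), which compare a gene between libraries and not different genes with each other. A CPM is a share of a library, and RNA per cell was not measured. A gene called lower took a lower share, which does not show less of its RNA per cell. Where 4 values are given for a state, they follow replicates 1 to 4. A mean ± SD is over the 4 libraries of a state (n = 4), and a log2 fold change is Treg minus Tn ± SE. A gene was called when the adjusted p of edgeR's two-sided quasi-likelihood test was under 0.05, and called over 2-fold when edgeR's test against a 2-fold change passed the same threshold. Library totals ran from 22516394 to 29784864 counts in Tn and from 27060195 to 34533297 in Treg, so that 3 counts, taken as the floor, stood for 0.0865 to 0.129 CPM. The floor covers counting error only, since the reads carried no molecular identifiers.

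The Tn libraries fell into pairs. Replicates 1 and 2 correlated at r = 0.990 with each other across 13675 genes on the log2 CPM scale, and replicates 3 and 4 at 0.989, while correlations across the pairs were 0.972 to 0.981. In Tn, 978 genes differed by over 2-fold between the pairs without overlap, 689 of them higher in replicates 1 and 2, against 274 genes for the same split of the Treg libraries. The median absolute log2 difference between the pairs was 0.27 in Tn and 0.16 in Treg, while the median absolute culture change was 0.94. Among Treg libraries, replicate 4 correlated at 0.983 to 0.986 with the others, which correlated at 0.989 to 0.991 among themselves. Values without these libraries are given for the genes they move most.

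The labelled cell type was checked against its markers. The 14 defining genes of CD4+ T cells summed to 7256 to 8064 CPM in Tn and 3339 to 3974 CPM in Treg. Cd4 stood at 840.4, 832, 999 and 993 CPM in Tn and 397, 367, 400.3 and 387 CPM in Treg, and Trac, the TCR alpha constant region, at 824, 801, 846 and 815 CPM in Tn and 298, 284, 286 and 282 CPM in Treg. Summed markers of B cells (15 genes) ran from 442 to 566 CPM in Tn and 160 to 195 CPM in Treg, mostly from Ighm, and the defining marker Cd79a was under 1 CPM in each WT library. Of 7 B cell markers tested, 5 were called lower, while Cd74, the invariant chain of MHC class II, rose from 6.23 ± 0.684 to 37.8 ± 5.96 CPM and Ighd from 2.03 ± 0.374 to 2.94 ± 0.2301 CPM. Myeloid markers (17 genes) summed to 4.96 to 11.5 CPM in Tn and 0.736 to 1.86 CPM in Treg, and erythroid and platelet markers (11 genes) to 4.88 to 8.47 and 0.690 to 1.40 CPM. CD8 T cell and NK cell markers (13 genes) summed to 88.2 to 120 CPM in Tn and 23.1 to 55.9 CPM in Treg, and Cd8b1 stood at 9.39, 9.11, 12.4 and 11.8 CPM in Tn and 3.69, 3.09, 3.81 and 1.91 CPM in Treg. Of 9 markers of CD8 T and NK cells tested, 8 were called lower and Nkg7, a cytotoxic granule protein, higher (from 7.25 ± 1.96 to 22.4 ± 13.4 CPM). The summed levels of these 4 lists of other cell types were lower in Treg libraries without overlap, and their part in the results was not tested. Markers of memory or activated T cells and thymus-derived Treg cells (18 genes) went the other way. They summed to 300 to 384 CPM in Tn and 3145 to 3607 CPM in Treg, with 10 called higher, Il2ra and Foxp3 among them, and 4 lower.

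Culture moved most of the transcriptome. Of 13675 genes tested, 5154 were called higher in Treg cells (37.7%) and 5362 lower (39.2%), 76.9% in all. Over 2-fold, 2453 genes were higher (17.9%) and 2464 lower (18.0%). The 4 libraries of the states did not overlap for 9986 genes (73.0%). The median log2 fold change over all genes was -0.05, and the 5th and 95th percentiles were -2.96 and 3.51. The genes tested include 548 that reached 10 counts through Treg libraries alone and 385 through Tn libraries alone. These shares are the background against which each gene list is read.

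**Figure D1:**
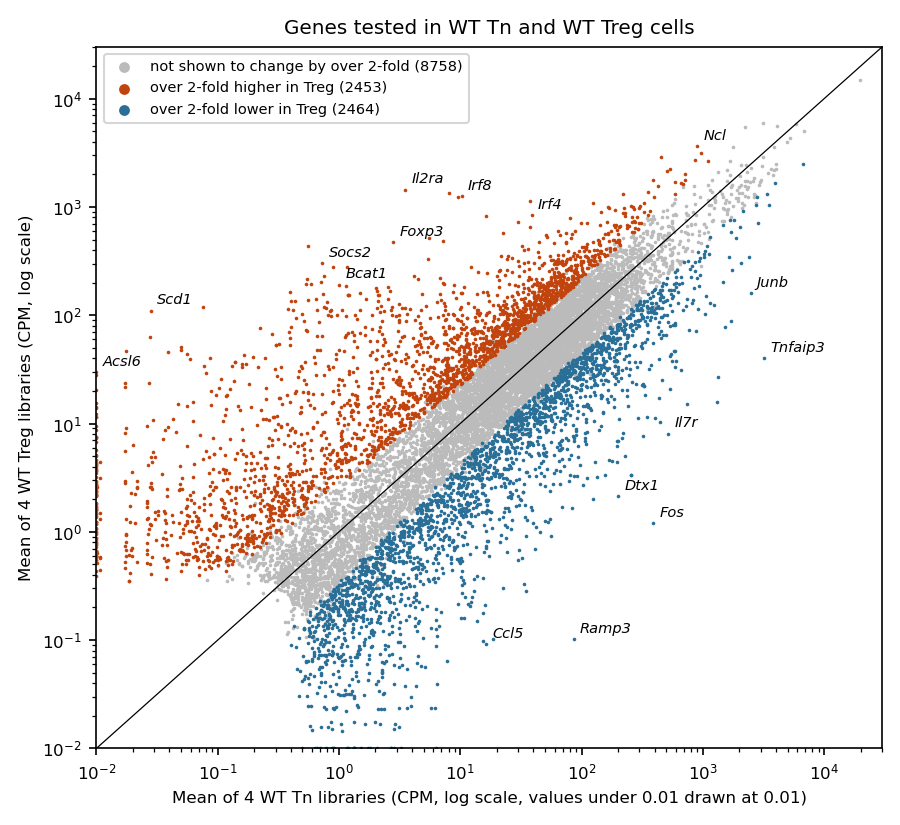
Mean CPM of the 4 WT Tn libraries (x axis) against the 4 WT Treg libraries (y axis), both on log scales, for 13675 genes. Orange points were called over 2-fold higher in Treg (2453 genes), blue points over 2-fold lower (2464 genes), grey points neither, and the line marks equal levels.

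Gene lists differed from this background in both directions. The members and medians of 39 lists of pathways and gene families are described below in the order of the cell's course from rest to division. A list's count refers to its members that passed the filter on low counts.

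**Figure D2:**
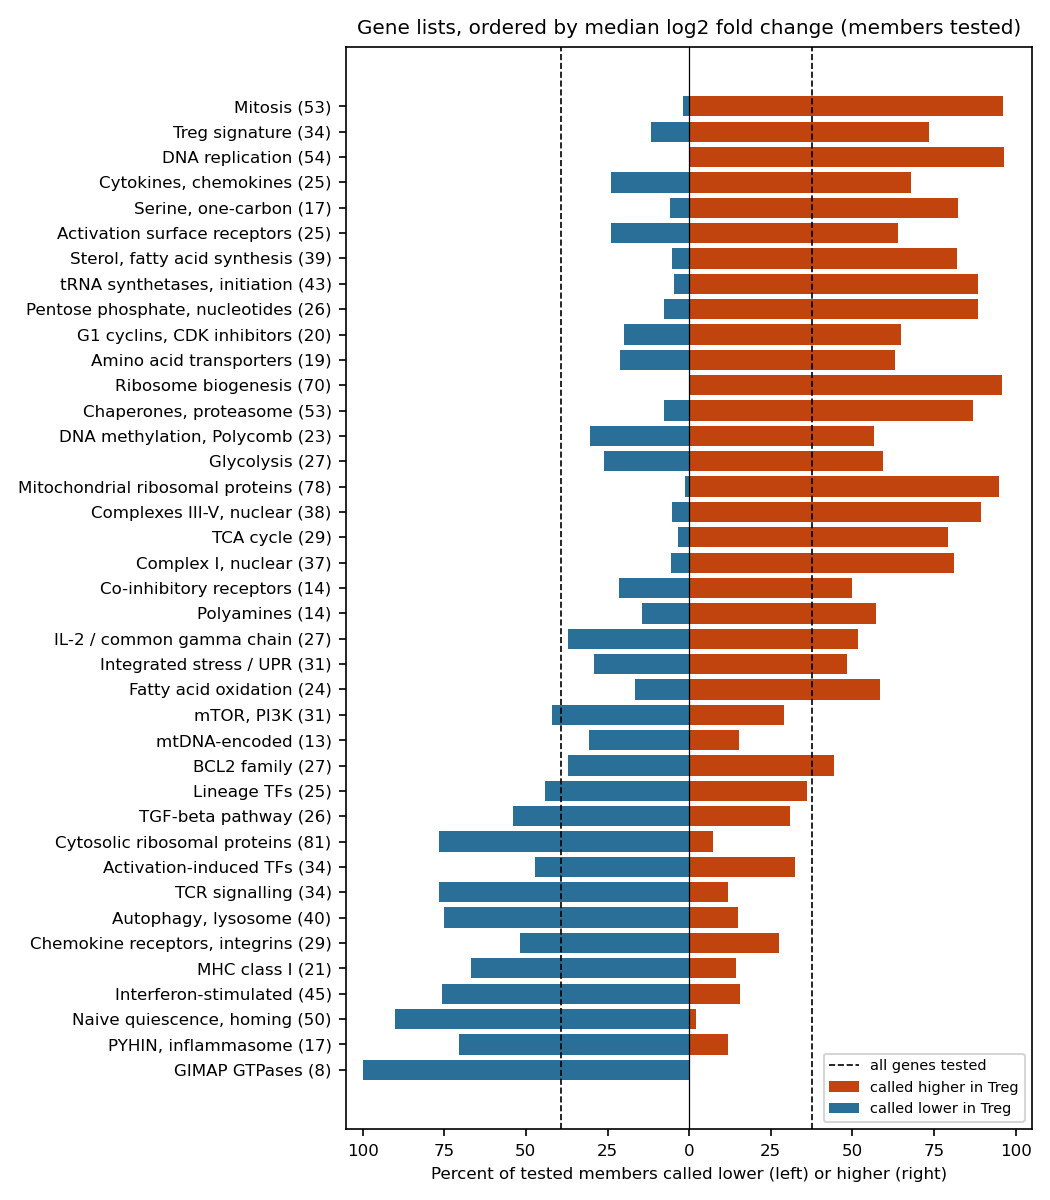
Percent of the tested members of each of 39 gene lists called higher (orange, to the right) or lower (blue, to the left) in Treg cells, ordered by median log2 fold change, with the number tested in parentheses. Dashed lines mark the shares over all genes, 37.7% higher and 39.2% lower. Mitosis and DNA replication lists lay near 100% higher, and all 8 GIMAP genes were lower.

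The programme of the resting naïve cell was lower after culture. Of 50 genes of naïve quiescence and homing, 45 were called lower, 35 of them over 2-fold, 1 was called higher and 4 were not called, with a median log2 fold change of -2.29 against -0.05 over all genes. Il7r, the IL-7 receptor chain that keeps naïve cells alive, was at 539.8, 483, 530.2 and 514 CPM in Tn and 6.798, 7.01, 6.87 and 11.7 CPM in Treg (log2 fold change -6.001 ± 0.20, adjusted p = 6.5e-09). All 4 Tn libraries lay far above all 4 Treg libraries. Klf2, a transcription factor of quiescence that drives S1pr1, went from 282 ± 18.4 to 23.2 ± 4.93 CPM (log2 fold change -3.61 ± 0.15). S1pr1, the receptor for lymphoid egress, and Ccr7, the receptor for lymph node entry, were split in Tn: S1pr1 was at 975, 906, 386 and 397 CPM in Tn and 48.03, 26.4, 34.9 and 16.3 CPM in Treg, and Ccr7 at 1411, 1595, 418 and 425 CPM in Tn and 339, 266, 284 and 254 CPM in Treg. Both were lower in every Treg library, by -4.41 ± 0.46 for S1pr1 and -1.75 ± 0.45 for Ccr7 on the log2 scale. Tcf7 and Lef1, transcription factors of naïve and memory cells, fell from high levels to lower but measurable ones, Tcf7 from 1643 ± 88.9 to 344 ± 64.6 CPM and Lef1 from 564 ± 75.7 to 151 ± 12.7 CPM. Foxo1, which sustains Klf2 and Il7r transcription, was at 471, 515, 319.9 and 334 CPM in Tn and 206, 198, 177 and 172 CPM in Treg, a fall that was called (log2 fold change -1.13 ± 0.16, adjusted p = 0.00011) but did not pass the test against a 2-fold change. Treml2, a receptor of the TREM family, was the member called higher, from 189.9 ± 17.2 to 301 ± 9.58 CPM.

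Ramp3, which encodes a partner of the calcitonin receptor-like receptor, had the largest decrease among genes with a mean of at least 10 CPM in the higher state (log2 fold change -9.64 ± 1.40, adjusted p = 0.00019). Its values were 143, 178, 12.02 and 12.5 CPM in Tn and 0.101, 0.173, 0.06002 and 0.0736 CPM in Treg, so its Tn level depended on the pair of libraries, and no Treg library exceeded 0.173 CPM. Fos, an immediate early AP-1 gene, was at 307, 384, 377 and 494 CPM in Tn and 1.29, 0.837, 1.14 and 1.58 CPM in Treg (log2 fold change -8.34 ± 0.23, adjusted p = 2.8e-09). Dtx1, a Notch pathway ubiquitin ligase that restrains T cell activation, was at 189.98, 185, 197 and 232 CPM in Tn and 2.33, 2.13, 2.31 and 1.73 CPM in Treg (log2 fold change -6.56 ± 0.13, adjusted p = 5.1e-10), and its Tn libraries differed little. Others among the 10 largest decreases were Ccl5, Cd7, Eya2, Oas2 and Lrrc75b, each under 0.6 CPM in every Treg library.

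Genes of TCR signalling were lower as a group, though by less. Of 34 tested, 26 were called lower and 4 higher, and 13 were over 2-fold lower, with a median of -0.70. Cd3e, a signalling chain of the receptor, went from 330.02 ± 47.001 to 206 ± 8.23 CPM (log2 fold change -0.68 ± 0.10), and Zap70, the kinase recruited to it, from 219 ± 16.5 to 173 ± 14.05 CPM (log2 fold change -0.34 ± 0.08). Themis and Tespa1, adaptors best known from thymocyte selection, fell further, Themis from 145 ± 15.9 to 18.3 ± 3.87 CPM and Tespa1 from 107 ± 10.8 to 14.6 ± 0.811 CPM. The members called higher were Sh2d2a, an adaptor (0.64 ± 0.15 on the log2 scale), Nfatc2, the calcineurin-regulated transcription factor NFAT1 (0.30 ± 0.08), Cd2, an adhesion receptor (0.28 ± 0.08), and Ubash3a, a negative regulator (0.23 ± 0.07). Cd28, the costimulatory receptor, was called lower, at 449, 413, 164 and 176 CPM in Tn and 99.3, 77.3, 101 and 83.6 CPM in Treg (log2 fold change -1.74 ± 0.33, adjusted p = 0.001), with reads shared between genes, and by -0.97 without Tn replicates 1 and 2.

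Activation and costimulatory receptors were split. Of 25 tested, 16 were called higher (64.0%), 13 of them over 2-fold, and 6 lower (24.0%), all over 2-fold. The shares over all genes were 37.7% and 39.2%. Among the 21 with at least 10 counts in every library 13 were higher and 5 lower. Il2ra, the high-affinity chain of the IL-2 receptor (CD25, chromosome 2, 11642807 to 11693193 in GRCm38), was at 2.72, 2.94, 4.21 and 4.22 CPM in Tn and 1459, 1507, 1452 and 1368 CPM in Treg (log2 fold change 8.68 ± 0.17, adjusted p = 5.1e-10), with no overlap and little spread within a state. Tfrc, the transferrin receptor of growing cells, went from 63.7 ± 27.1 to 359 ± 32.9 CPM, and Cd44, the activation marker used to exclude memory cells from Tn, from 52.5 ± 6.42 to 187 ± 31.3 CPM. Lower were Cd69, an early activation antigen (from 269.8 ± 41.4 to 51.8 ± 6.35 CPM), Cd40lg, the ligand that helps B cells (from 110.3 ± 15.2 to 21.8 ± 3.52 CPM), Slamf6, a homotypic receptor (from 128 ± 21.1 to 18.4 ± 4.71 CPM), and Icosl, the ligand of ICOS (from 15.96 ± 3.93 to 0.2099 ± 0.1803 CPM).

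The Treg signature was higher in Treg libraries. Of 34 signature and suppressor genes tested of 39 listed, 25 were called higher, 22 of them over 2-fold, 4 lower and 5 neither, with a median log2 fold change of 3.40. Of the 27 with at least 10 counts in every library, 21 were higher and 3 lower, with a median of 3.37. Foxp3 (chromosome X, 7573644 to 7595245) was at 2.05, 2.02, 3.01 and 4.09 CPM in Tn and 562, 572, 493 and 276 CPM in Treg (log2 fold change 7.41 ± 0.35, adjusted p = 8.7e-08). Every Treg library was far above every Tn library, and replicate 4 held the lowest Treg value. Nrp1, a receptor found on Treg cells, was also lowest in Treg replicate 4, at 1.34, 0.927, 1.16 and 1.97 CPM in Tn and 136, 113, 109.7 and 40.01 CPM in Treg (log2 fold change 6.18 ± 0.44). Pdcd1, which encodes the inhibitory receptor PD-1, was at 1.83, 1.69, 3.22 and 2.701 CPM in Tn and 118, 105, 124 and 86.5 CPM in Treg (log2 fold change 5.52 ± 0.22), and Il2rb, the signalling chain shared by IL-2 and IL-15, at 49.9, 52.7, 55.5 and 46.2 CPM in Tn and 589.96, 576, 519 and 520.1 CPM in Treg (log2 fold change 3.43 ± 0.09). Socs2, a STAT5 target that feeds back on cytokine receptors, was at 1.06, 0.403, 0.72999 and 0.727 CPM in Tn and 296, 319, 323 and 273 CPM in Treg (log2 fold change 8.67 ± 0.21). Tnfrsf18 (GITR) changed by less than 2-fold, from 35.2 ± 2.46 to 68.5 ± 7.57 CPM. Itgae, the CD103 chain, reached 3.89, 2.97, 2.94 and 2.72 CPM in Treg from at most 0.323 CPM in Tn.

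Several signature genes did not follow this pattern. Ctla4, an inhibitory receptor, was at 81.3, 81.6, 13.1 and 17.9 CPM in Tn and 77.3, 83.9, 72.9 and 56.97 CPM in Treg and was not called (log2 fold change 0.59 ± 0.56, adjusted p = 0.36). The states overlapped, and the log2 difference was 0.03 with replicates 1 and 2 of both states and 2.06 with replicates 3 and 4. Ikzf2 (Helios), a marker of thymus-derived Treg cells, stayed low, at 2.75, 2.78, 3.09 and 3.74 CPM in Tn and 3.62, 5.65, 3.39 and 14.6 CPM in Treg (adjusted p = 0.043), with its highest value in Treg replicate 4. Without that library its log2 fold change was 0.49 and it was not called (adjusted p = 0.081). The call was also lost without any of the 4 Tn replicates or Treg replicate 2, and with limma-voom or upper quartile factors. Gzmb, the cytotoxic protease granzyme B, was not called (adjusted p = 0.12) and stood at 0.643, 1.15, 0.4502 and 7.47 CPM in Treg. S100a4 and S100a6, calcium-binding proteins of memory and effector cells, and Glrx and Sdf4 were called lower. Il10, the suppressive cytokine, had at most 15 counts in any library and did not pass the filter.

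**Figure D3:**
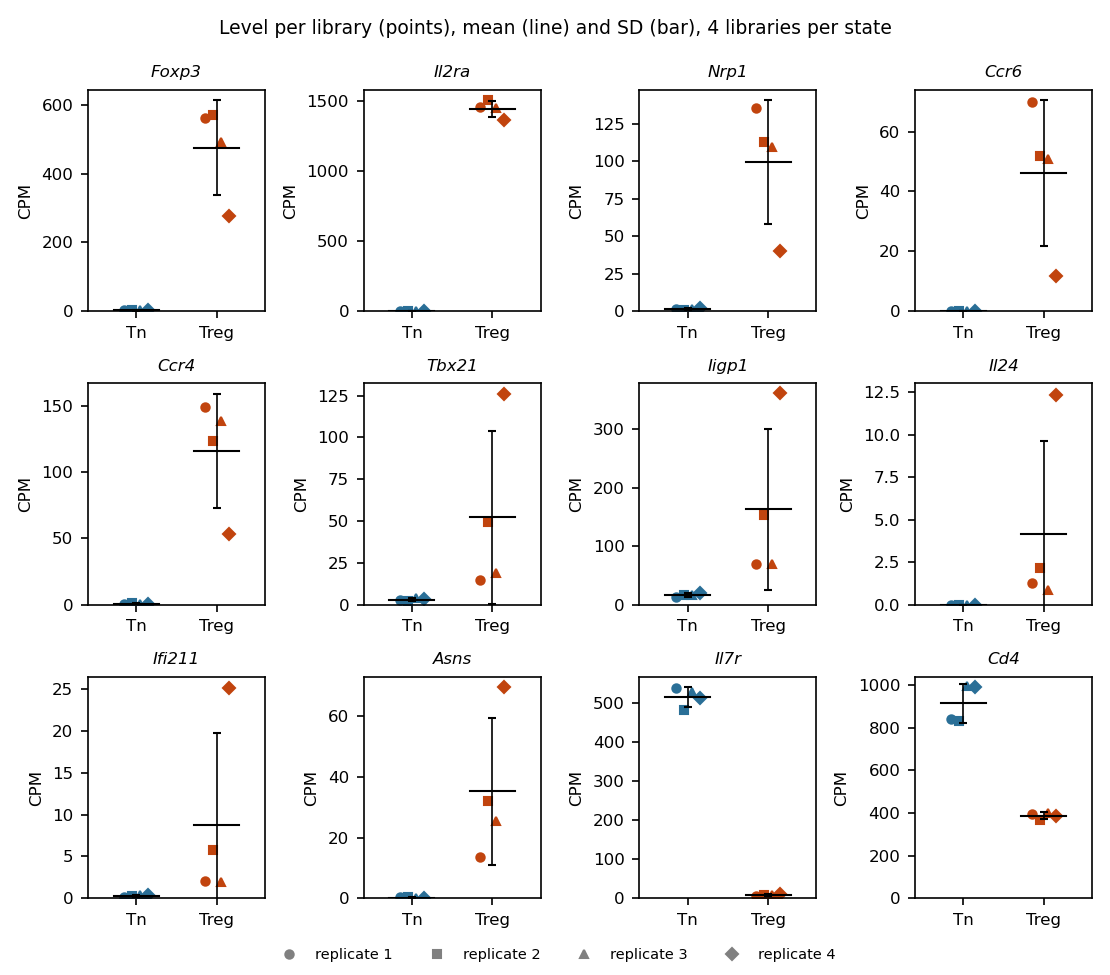
CPM per library for 12 genes in WT Tn (blue) and WT Treg (orange), with replicates 1 to 4 as circle, square, triangle and diamond, the mean as a line and the SD as a bar, on linear axes from 0. Treg replicate 4 (diamond) was the lowest Treg library for Foxp3, Nrp1, Ccr6 and Ccr4 and the highest for Tbx21, Iigp1, Il24, Ifi211 and Asns.

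The receptors and effectors of the TGF-beta pathway moved in opposite directions. Of 26 tested, 8 were called higher and 14 lower, and the median was -0.41. The type I receptor gene Tgfbr1 was higher, 32.9, 32.3, 24.05 and 23.5 CPM in Tn and 200.02, 192, 206 and 157 CPM in Treg (log2 fold change 2.74 ± 0.14, adjusted p = 1.1e-07). The type II receptor gene Tgfbr2 was lower, 671, 748, 414 and 411 CPM in Tn and 172, 156, 129.7 and 115 CPM in Treg (log2 fold change -1.97 ± 0.23, adjusted p = 3.2e-05). Among feedback inhibitors induced by TGF-beta, Pmepa1 was higher, 6.53, 6.73, 5.71 and 6.89 CPM in Tn and 140.1, 148, 121 and 126 CPM in Treg, while Smad7 was lower, 286, 301, 179.8 and 221 CPM in Tn and 41.97, 39.1, 36.2 and 31.1 CPM in Treg. Skil, another such inhibitor, was not called (192, 267, 72.4 and 74.8 CPM in Tn and 227, 222, 224 and 214 CPM in Treg, adjusted p = 0.23). Of the SMAD transducers, Smad3 and Smad4 were lower by -0.34 ± 0.08 and -0.77 ± 0.07 on the log2 scale, and Smad2 was not called (0.01 ± 0.10, adjusted p = 0.92). Tgfb1, the ligand, went from 104 ± 5.16 to 189 ± 16.01 CPM, Furin, the protease that processes it, from 69.6 ± 29.3 to 357 ± 16.7 CPM, and Bmpr2, a BMP receptor, from 3.33 ± 0.229 to 63.5 ± 8.39 CPM. Tgif1, a SMAD corepressor, was called lower (adjusted p = 0.016), but its values were 298, 399.7, 29.7 and 47.6 CPM in Tn and 37.98, 37.7, 37.9 and 33.8 CPM in Treg, and Tn replicates 3 and 4 lay near the Treg level. The call was lost without Tn replicate 2 or without Treg replicate 4.

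Receptors of the common gamma chain family moved in both directions. Of 27 genes of IL-2 signalling tested, 14 were called higher (51.9%) and 10 lower (37.0%), against 37.7% and 39.2% over all genes. Beside the rise of Il2ra and Il2rb, Il7r, Il4ra and Il21r fell, Il4ra from 903 ± 552 to 221 ± 24.9 CPM and Il21r from 452 ± 228 to 96.3 ± 19.7 CPM, and the shared chain Il2rg itself fell from 611 ± 19.2 to 326 ± 14.6 CPM (log2 fold change -0.91 ± 0.06). Among STAT5 targets, Cish, a feedback inhibitor, was at 25.4, 31.8, 20.4 and 22.1 CPM in Tn and 402, 385, 337 and 281 CPM in Treg (log2 fold change 3.82 ± 0.17), and Socs1 went from 16.1 ± 2.03 to 42.3 ± 5.404 CPM. Socs3, which limits IL-6 signalling, went the other way, from 162 ± 60.3 to 16.999 ± 2.94 CPM, and Pim1, a survival kinase, fell from 465 ± 285 to 133 ± 5.56 CPM. Of the kinases and STATs, Jak1 and Stat4 were lower (-1.61 ± 0.11 and -2.80 ± 0.10 on the log2 scale), Stat5b was higher (0.49 ± 0.06), and Jak3 was not called (0.05 ± 0.11, adjusted p = 0.69). Il2 itself had at most 11 counts in any library and was not tested.

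Of 25 cytokine and chemokine genes tested of 35 listed, 17 were called higher and 6 lower, with a median of 2.71, but 6 passed the filter through Treg libraries alone. Among the 15 with at least 10 counts in every library, 9 were higher and 4 lower, and the median was 1.13. Il9 had no count in Tn and stood at 18.3, 15.2, 16.5 and 11.4 CPM in Treg. Lif, a cytokine of the IL-6 family, was at 0.847, 1.85, 0.601 and 0.9004 CPM in Tn and 93.4, 123, 56.1 and 172 CPM in Treg (log2 fold change 6.72 ± 0.46). Tnf went from 19.8 ± 7.97 to 45.2 ± 11.2 CPM. Ltb, which encodes lymphotoxin beta, fell from 424 ± 70.7 to 161 ± 26.2 CPM, Tnfsf8 (CD30 ligand) from 43.9 ± 6.44 to 6.54 ± 2.83 CPM, and Fasl, the death receptor ligand, from 19.3 ± 9.78 to 5.45 ± 0.611 CPM. Ifng, the Th1 cytokine, was not called (adjusted p = 0.36) and stood at 1.15, 4.47, 0.9303 and 20.6 CPM in Treg, the highest value being that of replicate 4. Il17a had at most 7 counts and Il4 at most 9 in any library, and neither was tested.

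Of 25 T helper lineage transcription factors, 9 were called higher and 11 lower, shares close to those of all genes. Tbx21 (T-bet, Th1) was at 2.999, 1.94, 3.99 and 3.22 CPM in Tn and 14.7, 49.6, 18.7 and 126 CPM in Treg (log2 fold change 4.10 ± 0.72), with replicates 2 and 4 above the other Treg libraries. Gata3 (Th2) fell from 56.3 ± 1.68 to 11.2 ± 4.16 CPM and Eomes from 16.6 ± 3.75 to 3.14 ± 2.03 CPM. Ahr, a ligand-activated factor, went from 2.88 ± 1.84 to 38.4 ± 9.46 CPM, and Maf from 8.85 ± 3.51 to 55.6 ± 8.36 CPM. Bcl6, of follicular helper cells, fell from 20.4 ± 2.54 to 12.5 ± 3.44 CPM. The median of this list was -0.24 and turned to 0.03 without Tn replicates 1 and 2.

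Co-inhibitory receptors varied by gene. Of 14 tested, 7 were called higher and 3 lower. Lag3 went from 1.43 ± 0.546 to 22.1 ± 7.44 CPM, and Pdcd1lg2, which encodes a PD-1 ligand, from 0.755 ± 0.209 to 28.2 ± 3.79 CPM. Vsir (VISTA), which maintains quiescence, fell from 346 ± 17.97 to 60.9 ± 18.96 CPM, and Btla from 92.5 ± 13.8 to 49.2 ± 4.02 CPM. Tigit was split in Tn, 11.04, 17.5, 1.12 and 0.727 CPM in Tn and 7.71, 9.58, 7.53 and 9.34 CPM in Treg, and was not called. Its log2 difference was 0.17 in full, -0.75 without Tn replicates 3 and 4 and 3.17 without Tn replicates 1 and 2, and the last of these was called higher (adjusted p = 6.6e-06).

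Homing receptors also moved in both directions. Of 29 chemokine receptors and integrins tested, 8 were called higher (27.6%) and 15 lower (51.7%), against 37.7% and 39.2% over all genes. Of the 21 with at least 10 counts in every library 4 were higher and 11 lower. Ccr8 and Ccr4, receptors for skin and tissue chemokines, rose, Ccr8 at 0.882, 1.13, 0.129 and 0.208 CPM in Tn and 219, 207, 188 and 162 CPM in Treg (log2 fold change 8.35 ± 0.42) and Ccr4 at 0.5999, 1.13, 0.72999 and 0.693 CPM in Tn and 149, 123, 138 and 53.5 CPM in Treg (log2 fold change 7.21 ± 0.40). Ccr6, shared by Th17 and Treg cells, was at 0, 0, 0.0859 and 0.0693 CPM in Tn and 69.7, 51.7, 50.9 and 11.9 CPM in Treg. Its Treg mean was at least 358-fold above the floor in Tn. Cxcr4, the bone marrow and lymphoid homing receptor, fell at 304, 295, 157 and 164 CPM in Tn and 7.17, 4.5005, 5.702 and 2.57 CPM in Treg (log2 fold change -5.52 ± 0.38). Itga4 and Itgb7, whose products pair for gut homing, both fell, Itga4 from 274 ± 15.1 to 36.9 ± 11.1 CPM and Itgb7 from 836 ± 51.4 to 138 ± 20.7 CPM, while Itgb1, the alternative partner of the alpha 4 chain, went from 44.3 ± 4.11 to 179.6 ± 10.8 CPM, and Itgav, which takes part in TGF-beta activation, from 18.2 ± 0.916 to 64.8 ± 4.62 CPM. Itgal, the LFA-1 chain, was not called (from 505 ± 21.4 to 545 ± 10.7 CPM, adjusted p = 0.094). The list's median was -0.86, and it was 0.13 with replicates 1 and 2 of both states alone.

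Activation-induced transcription factors were not moved in a common direction. Of 34 tested, 11 were called higher (32.4%) and 16 lower (47.1%), against 37.7% and 39.2% over all genes. The median was -0.66 and turned to 0.27 without Tn replicates 1 and 2. The list's mean centred log2 level in the Tn libraries was 0.45, 0.79, -0.66 and -0.25. The Treg libraries, at -0.14, -0.14, -0.11 and 0.06, lay within that range. Irf8 was at 9.32, 12.98, 10.3 and 8.35 CPM in Tn and 929, 1225, 1132 and 1725 CPM in Treg (log2 fold change 6.93 ± 0.25, adjusted p = 1.5e-08), and Irf4, the interferon regulatory factor induced in proportion to TCR signal, at 49.9, 73.98, 12.97 and 18.9 CPM in Tn and 849.7, 917, 787 and 827 CPM in Treg (log2 fold change 4.44 ± 0.54). Myc, the driver of growth, was at 73.01, 70.1, 115 and 133 CPM in Tn and 346, 366, 315 and 344 CPM in Treg (log2 fold change 1.81 ± 0.20), and Egr2 at 9.17, 11.5, 9.404 and 12.4 CPM in Tn and 51.8, 52.9, 49.4 and 51.2 CPM in Treg (log2 fold change 2.27 ± 0.11). Besides Fos, Fosb, another AP-1 gene, fell, at 74.1, 89.7, 34.9 and 77.99 CPM in Tn and 1.93, 1.59, 1.89 and 1.32 CPM in Treg (log2 fold change -5.35 ± 0.32). Batf, the AP-1 partner of IRF4, fell from 46.5 ± 22.4 to 16.1 ± 1.03 CPM, and Id2, an inhibitor of E proteins, from 83.2 ± 5.58 to 13.8 ± 2.897 CPM. Nr4a1 (Nur77), an immediate target of the TCR, was not called (301, 469, 138 and 231 CPM in Tn and 184, 176, 195 and 173 CPM in Treg, adjusted p = 0.079).

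The difference between the Tn pairs was large in genes of this kind, which were picked out after their values were seen. Fosl2, an AP-1 gene, was at 529.99, 749, 21.1 and 44.3 CPM in Tn and 16.7, 16.8, 26.6 and 14.01 CPM in Treg. Nr4a3, a paralogue of Nr4a1, was at 247, 387, 17.005 and 19.5 CPM in Tn and 271, 351, 341 and 465 CPM in Treg, so that its culture difference was 0.01 on the log2 scale with replicates 1 and 2 of both states and 4.46 with replicates 3 and 4. Crem, a cAMP-responsive factor, was at 75.3, 86.8, 6.48 and 8.42 CPM in Tn and 18.1, 17.7, 21.7 and 19.8 CPM in Treg, with differences of -2.14 and 1.46. Dusp10, a phosphatase that limits stress kinases, was at 1246, 1422, 122 and 174 CPM in Tn and 14.8, 13.8, 13.3 and 18.2 CPM in Treg, and Icos, a costimulatory receptor, at 126, 126, 35.6 and 38.4 CPM in Tn and 79.9, 65.03, 71.9 and 70.4 CPM in Treg. In the 4 Aim2-/- Tn libraries Fosl2 stood at 409, 202, 86.9 and 182 CPM, between the WT pairs. Of 7645 genes called both with replicates 1 and 2 and with replicates 3 and 4, 7486 (97.9%) moved in the same direction and 159 in opposite ones.

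Of 239 called genes described here that could be refitted without Tn replicates 1 and 2, 22 had a fold change that moved by over 1.5 times and 8 lost the call, and without Tn replicates 3 and 4 these counts were 13 and 10. Without Tn replicates 1 and 2 the log2 fold change was -0.61 for Ccr7, -1.01 for Il4ra, -1.49 for Il21r, -0.89 for Pim1, -0.96 for Slc38a2, -0.86 for Batf, -1.06 for Fasl and -3.69 for S1pr1, all smaller falls than in full. Rises that were larger without them were those of Irf4 (5.67), Hk2 (7.43), Ccr8 (10.05), Ahr (4.80), Rragd (4.96) and Tfrc (3.10). Without Tn replicates 3 and 4 it was -2.41 for Ccr7, -2.65 for Il4ra, -2.40 for Pim1, 3.76 for Irf4, 5.53 for Hk2 and 3.10 for Ahr. The genes that lost the call without Tn replicates 1 and 2 were Bcl6, Ccnd1, Ccnd3, Gbp2, Ighd, Ikzf2, Nkg7 and Tgif1, and without Tn replicates 3 and 4 Acaa2, Calr, Ccnd3, Gbp2, Ikzf2, Rpl24, Rpl41, Rps26, S100a4 and Ubash3a. Without Treg replicate 4 the log2 fold change was 3.504 for Ifi211, 3.23 for Tbx21 and 2.60 for Iigp1, and each was still called.

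**Figure D4:**
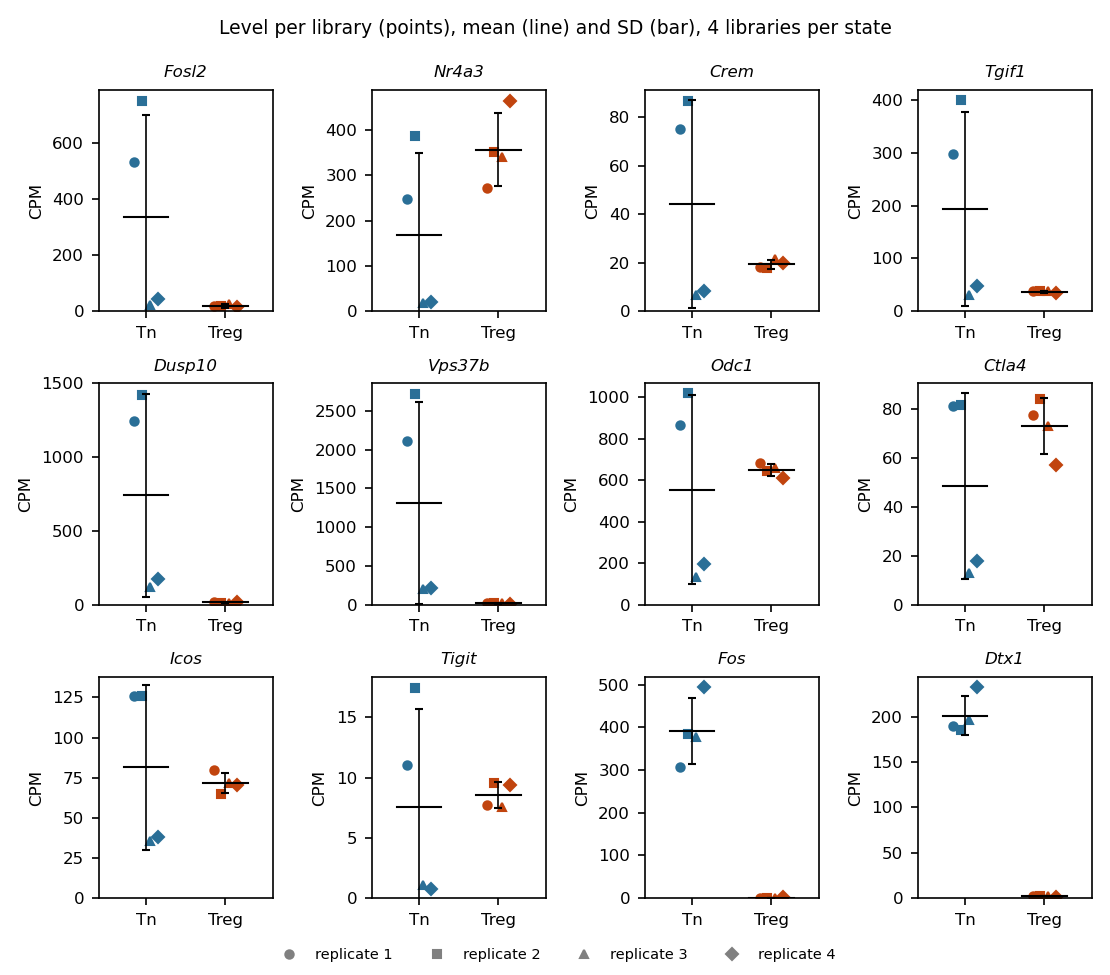
CPM per library for 12 genes in WT Tn (blue) and WT Treg (orange), with replicates 1 to 4 as circle, square, triangle and diamond, the mean as a line and the SD as a bar, on linear axes from 0. Tn replicates 1 and 2 lay above replicates 3 and 4 for the genes from Fosl2 to Tigit, and the Tn libraries of Fos and Dtx1 did not show that split.

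Cell cycle genes rose almost without exception. Of 54 DNA replication genes, 52 were called higher, 50 of them over 2-fold, and none lower, with a median of 3.00. Of 53 mitosis genes, 51 were called higher, 49 over 2-fold, and 1 lower, with a median of 6.17 (5.35 over the 39 with at least 10 counts in every library). Mcm5, a subunit of the replicative helicase, was at 52.6, 55.1, 52.3 and 47.5 CPM in Tn and 555, 522, 514 and 518 CPM in Treg (log2 fold change 3.34 ± 0.07, adjusted p = 6e-10). Cdc6, which loads that helicase, went from 2.19 ± 0.372 to 107 ± 2.51 CPM, and Rrm2, the regulated subunit of ribonucleotide reductase, from 5.52 ± 1.07 to 512 ± 35.6 CPM. Mki67, the proliferation antigen, was at 4.59, 5.24, 11.6 and 10.7 CPM in Tn and 1288, 1489, 1336 and 1234 CPM in Treg (log2 fold change 7.38 ± 0.35), and Top2a, the topoisomerase of mitotic chromosomes, at 8.43, 10.5, 10.7 and 8.87 CPM in Tn and 1312, 1305, 1182 and 1193 CPM in Treg (log2 fold change 7.02 ± 0.11). Cdk1, the mitotic kinase, was at 0.494, 0.363, 0.687 and 0.589 CPM in Tn and 208, 213, 167 and 193 CPM in Treg (log2 fold change 8.51 ± 0.17), and its cyclin Ccnb1 went from 0.754 ± 0.344 to 228 ± 24.2 CPM. The mitosis gene that fell was Pttg1, securin, 39.9, 37.4, 35.04 and 36.6 CPM in Tn and 13.9, 14.5, 11.9 and 13.7 CPM in Treg (log2 fold change -1.46 ± 0.09, adjusted p = 3.6e-07).

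Of 20 genes of the G1 phase tested, 13 were called higher and 4 lower. Ccne1, cyclin E1, went from 4.67 ± 2.38 to 85.5 ± 11.9 CPM, Cdk4 from 92.3 ± 15.5 to 351 ± 9.76 CPM, Cdk6 from 9.84 ± 1.09 to 64.1 ± 16.8 CPM and E2f3 from 3.41 ± 0.575 to 64.3 ± 1.85 CPM. Ccnd2 and Ccnd3, the D cyclins of lymphocytes, changed by under 2-fold, and Ccnd1, under 2 CPM in every library, was called lower (log2 fold change -1.35 ± 0.49). Among inhibitors, Cdkn1b (p27), which holds resting cells in G0, fell from 215 ± 40.9 to 31.2 ± 4.84 CPM, as did Cdkn1c (p57), while Cdkn2c (p18) rose from 2.29 ± 0.338 to 21.8 ± 1.05 CPM. Rbl2 (p130), the pocket protein of quiescence, fell from 106 ± 12.6 to 31.7 ± 6.37 CPM. Cdkn1a (p21) was at 9.56, 16.1, 0.558 and 1.18 CPM in Tn and 23.6, 23.2, 26.1 and 25.7 CPM in Treg and was not called (adjusted p = 0.057). The states did not overlap. Its log2 difference was 0.92 with replicates 1 and 2 of both states and 4.85 with replicates 3 and 4. By edgeR's test both of these were called higher (adjusted p = 0.0087 and adjusted p = 8.0e-06).

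Promoter sequence was compared with these lists, because E2F factors bind replication genes and the CHR element (cell cycle genes homology region) marks mitotic genes. In the 250 bases before the RefSeq transcription start, an E2F site (TTTGGCGC or TTTCCCGC, on either strand) was found in 12.7% of 55 promoters of 45 matched replication genes, against 1.30% of 32851 promoters of 27025 genes. The CHR letters TTTGAA were found in 42.6% of 47 promoters of 44 mitosis genes, against 16% of all, and CCAAT in 76.6% against 33.8%. Motifs were searched independently, so that matches of different motifs may share bases. Windows of 30 bases are shown for members with a match, 5′ to 3′ on the strand of the gene in GRCm38, with the matched letters in capitals. The match shown begins 110 bases before the start for Mcm6 and 71 for Cdk1. A further match of the same motif, not shown, begins at 47 bases for Mcm6 and 15 for Cdk1.
Mcm6 (E2F), chr1:128359797-128359826: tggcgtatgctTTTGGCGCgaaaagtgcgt
Cdc6 (E2F), chr11:98908002-98908031: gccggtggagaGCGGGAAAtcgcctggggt
Cdk1 (CHR), chr10:69352966-69352995: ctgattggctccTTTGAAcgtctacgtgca
Mcm6, another helicase subunit, went from 80.95 ± 6.89 to 791 ± 49.4 CPM. A match is a description of letters and not a binding site shown in these cells.

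Genes that build ribosomes rose, while most ribosomal protein genes took a lower share of the counts. Of 70 ribosome biogenesis genes, 67 were called higher, 36 over 2-fold, and none lower, with a median of 1.24. Ncl, nucleolin, was at 1027, 1091, 737 and 725 CPM in Tn and 3795, 3955, 3318 and 3616 CPM in Treg (log2 fold change 2.04 ± 0.14), Npm1, nucleophosmin, went from 961 ± 128 to 3118 ± 112 CPM, and Polr1b, a subunit of RNA polymerase I, from 49.3 ± 5.03 to 139 ± 6.05 CPM. Of 81 cytosolic ribosomal protein genes, 62 were called lower and 6 higher, with a median of -0.56, and 5 fell over 2-fold. Rps27 was at 3150.2, 3056, 2619 and 2567 CPM in Tn and 749.8, 713, 690.2 and 701 CPM in Treg (log2 fold change -1.997 ± 0.08, adjusted p = 1.8e-08), Rps6 fell from 3437 ± 293 to 2059 ± 67.6 CPM, and Rpl3 and Rpl4 were not called (adjusted p = 0.066 and adjusted p = 0.07). The 6 called higher were Rps27l, a p53-responsive paralogue of Rps27 (from 13.1 ± 2.22 to 95.9 ± 3.39 CPM), Rps2, Rpl24, Rpl41, Rps12 and Rps26. Ribosomal protein genes have many processed pseudogenes, and reads were shared between genes for each member named here except Rps27l, so single values are uncertain.

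Mitochondrial ribosomal proteins went with biogenesis instead: 74 of 78 were called higher and 1 lower, with a median of 0.92. Mrpl12 went from 44.2 ± 5.18 to 168 ± 10.2 CPM, and the member called lower was Mrpl24, from 119 ± 14.8 to 78.7 ± 5.25 CPM. Of 43 tRNA synthetase and translation factor genes, 38 were called higher, 30 over 2-fold, with a median of 1.54. Iars, the isoleucyl-tRNA synthetase, went from 70.5 ± 2.55 to 289.8 ± 46.4 CPM, Eif4a1, the initiation helicase, from 712 ± 117 to 2009 ± 104 CPM, and Eif5a from 391 ± 40.1 to 1761 ± 74.8 CPM. The 2 called lower were Pdcd4, an inhibitor of Eif4a1, 362, 315, 376 and 333 CPM in Tn and 116, 82.6, 84.1 and 42.5 CPM in Treg, and Eef1a1, an elongation factor (log2 fold change -0.40 ± 0.07). Eif4ebp1, which restrains cap-dependent initiation, was higher, 4.13, 3.43, 4.38 and 4.26 CPM in Tn and 22.6, 34.4, 30.7 and 52.4 CPM in Treg.

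Glycolytic enzymes rose along most of the pathway. Of 27 genes, 16 were called higher, 10 over 2-fold, and 7 lower, with a median of 0.94. Hk2, the induced hexokinase, was at 2.75, 3.91, 0.859 and 0.866 CPM in Tn and 125, 163, 110.3 and 221 CPM in Treg (log2 fold change 6.20 ± 0.50), Gapdh went from 424 ± 38.2 to 1565 ± 141 CPM, Pkm from 691 ± 58.3 to 1633 ± 89.6 CPM and Slc16a3, a lactate exporter, from 2.097 ± 0.601 to 20.2 ± 5.58 CPM. The lactate dehydrogenase genes diverged: Ldha was at 505, 473, 532 and 498 CPM in Tn and 2139, 2181, 2018 and 2171 CPM in Treg (log2 fold change 2.08 ± 0.06, adjusted p = 2.6e-09) and Ldhb at 31.1, 28.3, 34.2 and 30.2 CPM in Tn and 12.3, 9.35, 10.7 and 9.86 CPM in Treg (log2 fold change -1.55 ± 0.11, adjusted p = 1e-06). Pdk1, the kinase that shuts off pyruvate dehydrogenase, fell from 350.2 ± 18.8 to 70.3 ± 13.4 CPM, and Pfkfb4, which makes an activator of phosphofructokinase, from 14.3 ± 1.31 to 3.27 ± 0.469 CPM. The glucose transporter Slc2a3 fell from 59.4 ± 4.86 to 26.2 ± 3.05 CPM, and Slc2a1 was not called, at 90.5, 99.5, 34.9 and 42.2 CPM in Tn and 92.98, 94.7, 77.7 and 87.1 CPM in Treg (adjusted p = 0.27).

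Nucleotide synthesis rose. Of 26 genes of the pentose phosphate pathway and of purine and pyrimidine synthesis, 23 were called higher, 19 over 2-fold, with a median of 1.45. Cad, which begins pyrimidine synthesis, was at 64.2, 71.5, 86.2 and 78.3 CPM in Tn and 484, 489, 456 and 449.8 CPM in Treg (log2 fold change 2.65 ± 0.10), Pfas, a purine enzyme, went from 30.4 ± 4.58 to 228 ± 13.04 CPM, and G6pdx, the entry to the pentose phosphate pathway, from 43.2 ± 1.84 to 114 ± 9.39 CPM. Paralogues moved in opposite directions here too. Ctps rose from 30.02 ± 5.53 to 159 ± 5.81 CPM while Ctps2 fell from 86.1 ± 2.12 to 30.7 ± 3.35 CPM. Impdh2 rose from 192 ± 24.04 to 688 ± 42.8 CPM while Impdh1 fell from 149 ± 2.28 to 91.1 ± 3.55 CPM. Of 17 genes of serine and folate metabolism, 14 were called higher, with a median of 1.98. Phgdh, the first enzyme of serine synthesis, was at 82.9, 80.9, 88.3 and 82.5 CPM in Tn and 583, 588, 506 and 556 CPM in Treg (log2 fold change 2.74 ± 0.07), Psat1, the next, went from 26.8 ± 1.203 to 337 ± 64.6 CPM, Shmt2, the mitochondrial serine hydroxymethyltransferase, from 81.5 ± 5.75 to 517 ± 45.5 CPM, and Mthfd2 from 48.3 ± 1.48 to 190.02 ± 42.7 CPM. Aldh1l1, which oxidizes formyl-tetrahydrofolate, was the member called lower, from 4.16 ± 0.678 to 0.315 ± 0.177 CPM.

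Nuclear genes of mitochondrial respiration rose by moderate amounts. Of 29 TCA cycle genes, 23 were called higher (median 0.71). Of 37 complex I subunits, 30 were called higher (median 0.71), and of 38 genes of complexes III to V, 34 (median 0.83). Over 2-fold, the counts were 8, 9 and 10. Cs, citrate synthase, went from 186 ± 14.1 to 402 ± 9.46 CPM, Pcx, pyruvate carboxylase, from 4.51 ± 0.802 to 29.4 ± 5.604 CPM, Got2, the mitochondrial aspartate aminotransferase, from 84.4 ± 3.58 to 355 ± 12.1 CPM, Ndufa12 from 18.1 ± 1.73 to 72.3 ± 2.48 CPM, and Cycs, cytochrome c, from 56.5 ± 2.12 to 228 ± 17.8 CPM. Cox7a2l, a supercomplex factor, fell, at 565, 552, 502 and 469.8 CPM in Tn and 183, 173, 166 and 158 CPM in Treg (log2 fold change -1.62 ± 0.08, adjusted p = 7.8e-08), as did Uqcrh, Ndufa6 and Ndufv3. The 13 protein genes of mitochondrial DNA did not move as a group: 2 were called higher, 4 lower and 7 neither, with a median of -0.04. mt-Nd1 was at 1019.6, 677, 943 and 719 CPM in Tn and 1403, 1172, 1449.9 and 1288 CPM in Treg and mt-Co1 at 7767, 5901, 7322 and 6133 CPM in Tn and 5103, 4138, 5899 and 5048 CPM in Treg, and the states overlapped for mt-Cytb (2692, 1909, 2423 and 2050.2 CPM in Tn and 2682, 2204, 2638 and 2284 CPM in Treg), which was not called.

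Sterol and fatty acid synthesis rose. Of 39 genes tested, 32 were called higher, 22 over 2-fold, and 2 lower, with a median of 1.61. Idi1, an enzyme of isoprenoid synthesis, went from 23.2 ± 2.79 to 233 ± 22.1 CPM, Sqle, squalene epoxidase, from 26.8 ± 2.27 to 121 ± 7.23 CPM and Fasn, fatty acid synthase, from 187 ± 10.3 to 935 ± 47.3 CPM. Among desaturases, Fads2 had no count in Tn and stood at 3.35, 10.8, 5.49 and 10.3 CPM in Treg. The stearoyl-CoA desaturase Scd2 was at 35.8, 31.4, 45.5 and 37.7 CPM in Tn and 816, 1329, 939 and 1467 CPM in Treg (log2 fold change 4.92 ± 0.23), and Scd1, at or under the floor in Tn, reached 42.5, 143, 71.97 and 185 CPM in Treg, with the higher values in replicates 2 and 4. Reads of these paralogues were shared between genes. The regulators changed less, Srebf1 by 0.89 ± 0.14 and Srebf2 by 0.36 ± 0.09 on the log2 scale, and Insig1 was not called (adjusted p = 0.18). Acss2, which makes acetyl-CoA from acetate, fell from 68.8 ± 11.1 to 7.08 ± 0.718 CPM. Of 24 genes of fatty acid oxidation, 14 were called higher and 4 lower, with a median of 0.42. Cpt1a, the gate of mitochondrial fatty acid entry, fell, at 61.3, 65.6, 89.4 and 104 CPM in Tn and 57.6, 49.3, 53.8 and 42.1 CPM in Treg (log2 fold change -0.66 ± 0.17), and Acadm fell from 43.1 ± 5.66 to 29.8 ± 1.92 CPM, while Acsl4 rose from 42.98 ± 8.91 to 189 ± 4.71 CPM.

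Of 19 amino acid transporters and aminotransferases, 12 were called higher and 4 lower, with a median of 1.26. Slc7a5, the carrier of large neutral amino acids, was at 70.9, 78.3, 45.4 and 42.3 CPM in Tn and 399, 464, 369 and 616 CPM in Treg (log2 fold change 2.96 ± 0.25), and Bcat1, a branched-chain aminotransferase, at 0.812, 1.01, 1.25 and 0.9697 CPM in Tn and 171, 192, 191 and 211 CPM in Treg (log2 fold change 7.57 ± 0.14). Slc3a2, the partner chain of Slc7a5, was not called: it was at 306, 355, 127 and 141 CPM in Tn and 172, 193, 182 and 263 CPM in Treg, and its Tn pairs lay on either side of the Treg values. Slc38a2, induced when amino acids are scarce, fell from 547 ± 273 to 169.9 ± 9.71 CPM, and Bcat2, the mitochondrial paralogue of Bcat1, from 67.8 ± 1.82 to 47.5 ± 2.08 CPM. Odc1, the first enzyme of polyamine synthesis, was likewise not called (868, 1023, 131 and 198 CPM in Tn and 684, 647, 661 and 613 CPM in Treg), while Srm, spermidine synthase, went from 33.4 ± 7.14 to 258 ± 11.2 CPM.

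The integrated stress response was mixed. Of 31 genes of this and the unfolded protein response tested, 15 were called higher (48.4%) and 9 lower (29.0%), with a median of 0.48. The shares over all genes were 37.7% and 39.2%. Of the 31 genes, 3 passed the filter through Treg libraries alone, and the 28 with at least 10 counts in every library had 12 higher, 9 lower and a median of 0.40. The list's median was 0.31 without Treg replicate 4 and 0.10 with replicates 1 and 2 of both states alone. Asns, asparagine synthetase, was at 0.247, 0.242, 0.129 and 0.0693 CPM in Tn and 13.6, 31.99, 25.6 and 69.5 CPM in Treg (log2 fold change 7.65 ± 0.68), highest in replicate 4. Chac1, a glutathione-degrading target of ATF4, was at 0.0706, 0.0403, 0 and 0 CPM in Tn and 0.406, 1.21, 2.16 and 6.66 CPM in Treg, in the same library order at its top. Atf4 itself fell from 471 ± 73.7 to 298 ± 50.3 CPM and Ddit3 (CHOP) from 32.97 ± 10.9 to 8.08 ± 1.22 CPM. Ppp1r15a (GADD34), which ends the response, fell steeply, at 1239, 1489.7, 1098 and 1511 CPM in Tn and 26.99, 27.5, 25.4 and 28.2 CPM in Treg (log2 fold change -5.63 ± 0.13, adjusted p = 7.2e-10), and so did Dnajb9, a target of XBP1, from 93.1 ± 27.5 to 4.87 ± 0.92004 CPM. The letters bound by ATF4 dimers (CARE, TGATGCAA, on either strand) were found in 12.5% of 32 promoters of 30 matched genes against 0.791% of all. The window of Chac1 is shown with the match in capitals.
Chac1 (CARE), chr2:119351038-119351067: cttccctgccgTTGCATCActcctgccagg

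Chaperones and the proteasome rose: 46 of 53 were called higher, 31 over 2-fold, and 4 lower, with a median of 1.19. Hspd1, the mitochondrial chaperonin, went from 220.4 ± 33.4 to 1317 ± 114 CPM, and Psmd1, a proteasome subunit, from 60.7 ± 2.796 to 301 ± 13.8 CPM. The stress-inducible chaperones Hspa1a and Hspa1b fell, Hspa1b from 30.3 ± 18.04 to 0.673 ± 0.248 CPM, with reads shared between the pair. The immunoproteasome subunits Psmb8 and Psmb9 were not called (adjusted p = 0.099 and adjusted p = 0.22), and Psmb10 fell from 112 ± 9.11 to 60.7 ± 7.31 CPM. Autophagy and lysosome genes were lower as a group, with 30 of 40 called lower, 6 higher and a median of -0.82. Map1lc3b, which coats autophagosomes, fell from 293 ± 76.9 to 88.8 ± 6.13 CPM, Sqstm1 (p62) from 308 ± 112 to 104 ± 2.78 CPM, and Ctsd, a lysosomal protease, from 318 ± 23.3 to 97.9 ± 1.96 CPM. Gabarapl1, another autophagosome protein, rose from 2.97 ± 1.53 to 45.7 ± 4.61 CPM, Ctsz from 28.9 ± 1.895 to 127 ± 9.15 CPM and Ctsc from 56.7 ± 7.34 to 199 ± 25.6 CPM.

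Interferon-stimulated genes were lower in cultured cells. Of 45 tested, 34 were called lower, 27 of them over 2-fold, and 7 higher, with a median of -1.94. Of the 38 with at least 10 counts in every library, 27 were lower and 7 higher, and the median was -1.37. Irf7, the regulator that amplifies type I interferon, was at 74.2, 73.1, 86.4 and 80.2 CPM in Tn and 3.82, 3.09, 3.03 and 1.84 CPM in Treg (log2 fold change -4.73 ± 0.19, adjusted p = 2.1e-08). Isg15, a ubiquitin-like modifier, went from 10.8 ± 1.32 to 0.887 ± 0.239 CPM, Ifit1, which binds foreign RNA, from 12.6 ± 3.85 to 2.74 ± 1.62 CPM, and Oas2, a sensor of double-stranded RNA, from 34.7 ± 5.48 to 0.284 ± 0.223 CPM. The members called higher included the interferon-gamma-inducible GTPases Iigp1, Irgm1, Igtp and Gbp2. Iigp1 was at 13.1, 16.3, 16.5 and 20.4 CPM in Tn and 69.2, 154, 69.4 and 361 CPM in Treg (log2 fold change 3.30 ± 0.55), and its highest value was in replicate 4, the library with the highest Ifng and Tbx21. Irgm1 was at 97.2, 94.7, 103 and 101 CPM in Tn and 218, 332, 182 and 439.8 CPM in Treg.

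The letters of an interferon-stimulated response element (ISRE, TTTCNNTTT, on either strand) stood in 58.5% of 41 promoters of 32 matched genes, against 9.37% of all promoters of the same length. The windows of a pair of members that fell show a match in capitals. In that of Isg15 a further match overlaps the marked letters and is not marked in full. Nearer the start, a match that is not marked begins 85 bases before it in Ifit1 and 65 in Isg15.
Ifit1 (ISRE), chr19:34640775-34640804: caggcttcagTTTCACTTTccagtctcagt
Isg15 (ISRE), chr4:156200876-156200905: atgccgtaggAAAAGGAAAccgaaacagaa

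The PYHIN and inflammasome genes were lower too. Of 17 tested of 26 listed, 12 were called lower, 11 over 2-fold, and 2 higher, with a median of -2.49. Of the 12 with at least 10 counts in every library, 8 were lower and 1 higher. Ifi213 was at 124, 117, 120.2 and 137 CPM in Tn and 2.47, 1.53, 2.82 and 1.25 CPM in Treg (log2 fold change -5.94 ± 0.23), Ifi209 went from 155 ± 39.5 to 3.35 ± 0.995 CPM, and Casp1, the inflammasome protease, from 4.46 ± 0.645 to 0.451 ± 0.193 CPM. Aim2 (chromosome 1, 173350879 to 173466040), a sensor of cytosolic DNA of the same family, was at 38.7, 37.7, 32.8 and 33.8 CPM in Tn and 35.8, 40.7, 43.1 and 39.6 CPM in Treg and was not called (log2 fold change 0.15 ± 0.09, adjusted p = 0.14). Tmem173 (STING) rose from 109 ± 34.8 to 199.8 ± 29.5 CPM. Ifi211 was the PYHIN gene called higher, at 0.176, 0.242, 0.386 and 0.381 CPM in Tn and 2.097, 5.77, 1.98 and 25.1 CPM in Treg (log2 fold change 4.86 ± 0.98, adjusted p = 0.0014), and replicate 4 held by far the highest value. PYHIN genes are close copies in a cluster on chromosome 1, and reads of Ifi209, Ifi211 and Ifi213 were shared between genes.

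All 8 GIMAP genes, GTPases that support survival of naïve T cells, were called lower, 7 over 2-fold, with a median of -2.66. Gimap6 was at 2183, 2409, 953 and 1222 CPM in Tn and 93.01, 90.3, 92.2 and 80.2 CPM in Treg (log2 fold change -4.25 ± 0.30) and Gimap4 at 552, 511, 613 and 595 CPM in Tn and 74.6, 83.3, 75.3 and 89.5 CPM in Treg (log2 fold change -2.82 ± 0.09). MHC class I presentation was lower too: 14 of 21 genes were called lower and 3 higher, with a median of -0.95. H2-K1 fell from 3503 ± 128 to 1053 ± 142 CPM, H2-D1 from 2752 ± 292 to 1052 ± 132 CPM, which share reads as near copies, and B2m, their common light chain, from 1719 ± 200.1 to 800.1 ± 145 CPM. The members called higher were Pdia3, Calr and Erap1, which fold or trim the peptide complex in the endoplasmic reticulum.

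Of 27 survival genes of the BCL2 family tested, 12 were called higher (44.4%) and 10 lower (37.0%), shares near those of all genes, with a median of -0.07. Bcl2 fell, at 132, 129, 164 and 151 CPM in Tn and 82.02, 61.5, 74.4 and 77.2 CPM in Treg (log2 fold change -0.96 ± 0.11), and Mcl1 fell from 666 ± 64.8 to 226 ± 9.397 CPM, while Bcl2l1 (BCL-XL) was at 13.4, 14.8, 13.8 and 12.9 CPM in Tn and 118, 105, 111 and 111 CPM in Treg (log2 fold change 3.02 ± 0.08, adjusted p = 1.6e-09). The pro-apoptotic Bcl2l11 (BIM) fell from 89.8 ± 32.8 to 8.55 ± 1.44 CPM, and Bbc3 (PUMA) from 36.98 ± 4.92 to 5.21 ± 0.572 CPM. Of 31 genes listed for mTOR and PI3K regulation, 9 were called higher (29.0%) and 13 lower (41.9%), against 37.7% and 39.2% over all genes. The median was -0.01. The 13 include Pdk1 (log2 fold change -2.32), the pyruvate dehydrogenase kinase described above, which is not a gene of the PI3K pathway. The median without it was not computed. Pik3ip1, an inhibitor of PI3K, fell, at 225, 217, 222 and 214 CPM in Tn and 10.8, 9.69, 7.29 and 4.67 CPM in Treg (log2 fold change -4.76 ± 0.23), as did Sesn1, an inhibitor of mTORC1, from 117 ± 4.64 to 32.2 ± 5.14 CPM, while Rragd, a GTPase of amino acid sensing, rose from 5.17 ± 3.63 to 70.7 ± 11.6 CPM.

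Of 23 genes of DNA methylation, Polycomb and chromatin, 13 were called higher and 7 lower, with a median of 1.06. Uhrf1, which brings Dnmt1 to replicated DNA, was at 6.99, 5.89, 7.77 and 8.104 CPM in Tn and 514, 507, 461 and 467 CPM in Treg (log2 fold change 6.08 ± 0.12), and Dnmt1, the maintenance methyltransferase, went from 163 ± 15.8 to 719.9 ± 42.02 CPM. Of the TET enzymes, which oxidize methylcytosine, Tet1 fell from 16.7 ± 1.93 to 1.59 ± 0.354 CPM and Tet3 from 148 ± 16.7 to 111 ± 7.88 CPM, and Tet2 was not called (from 42.2 ± 8.49 to 37.6 ± 2.71 CPM, adjusted p = 0.3). The Polycomb methyltransferases moved in opposite directions. Ezh2 was at 19.8, 15.4, 25.1 and 22.7 CPM in Tn and 166, 159, 193 and 216 CPM in Treg (log2 fold change 3.15 ± 0.16, adjusted p = 1.1e-07). Ezh1 was at 95.6, 96.4, 98.03 and 98.9 CPM in Tn and 27.9, 24.7, 28.9 and 21.04 CPM in Treg (log2 fold change -1.92 ± 0.10, adjusted p = 1.2e-07). Kmt2a, a histone H3 methyltransferase, and Kdm5b, a demethylase, were lower.

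**Figure D5:**
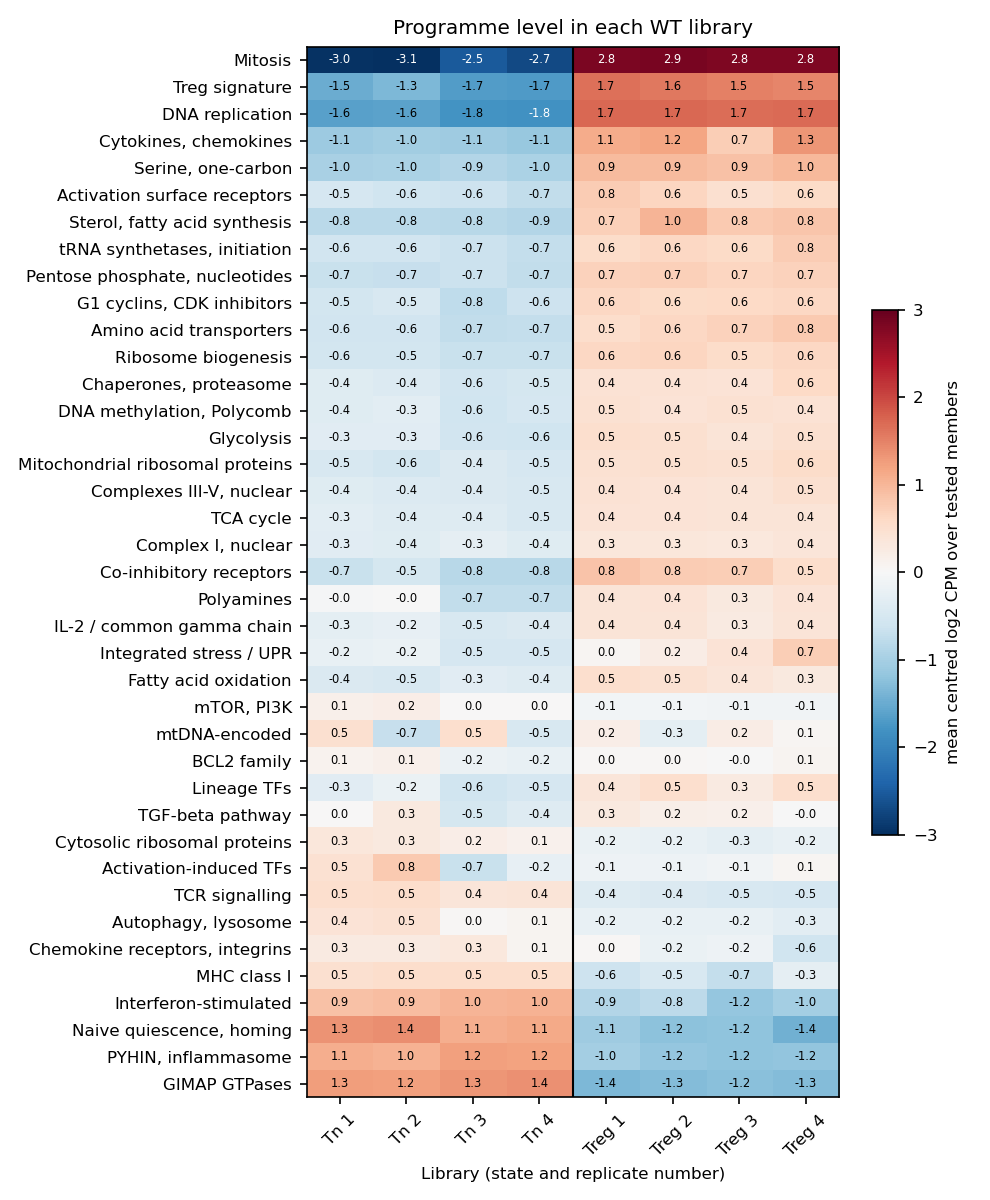
Mean centred log2 CPM of the tested members of 39 gene lists (rows, ordered by median change) in each of the 4 WT Tn and 4 WT Treg libraries (columns), with red above and blue below the mean over the 8 libraries. The states separated for most lists, and the activation-induced factors, with 0.45 and 0.79 in Tn replicates 1 and 2 and -0.66 and -0.25 in replicates 3 and 4, did not. Nor did the TGF-beta pathway, the genes encoded by mitochondrial DNA and the BCL2 family.

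Some genes were at the floor in every library of a state, with at least 100 counts in every library of the other. Of these, 41 were at or under the floor in Tn and 4 in Treg. Folds given here set the mean of the higher state against the floor, so a single library can lie below them. Against the floor, Tead1, a DNA-binding partner of YAP, was at least 485-fold higher, at 67.6, 71.6, 67.97 and 42.4 CPM in Treg, Myof, a membrane repair protein, at least 361-fold, at 47.4, 53.1, 56.5 and 28.7 CPM, and Scd1 at least 859-fold. Acsl6, a long-chain acyl-CoA synthetase, was at least 234-fold higher (36.8, 35.5, 27.9998 and 19.9 CPM), and Nupr1, a stress-responsive chromatin protein, at least 216-fold (30.8, 30.1, 32.5 and 17.98 CPM). Those at or under the floor in Treg were Chil5, Acoxl, Grm6 and E430014B02Rik, at least 51.7-fold to 58.5-fold lower there. Acoxl had no count in Treg, while E430014B02Rik had up to 3 counts in a Treg library. Acsl6, Nupr1, Myof and Tead1 were lowest in replicate 4 among the Treg libraries.

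The same culture was set beside that of Aim2-/- cells. Of 10327 genes called in WT and tested in Aim2-/-, 10292 (99.7%) changed in the same direction there and 9783 (94.7%) were also called. Across 13378 genes the log2 fold changes of the genotypes had r = 0.98, a description in which genes are not independent replicates. The interaction of culture and genotype, tested in 14669 genes over all 16 libraries, was called for 3 genes (0.0205%), and 512 genes had an unadjusted p under 0.05. The culture change of Ifi211 was 4.86 in WT and -4.21 in Aim2-/- on the log2 scale (interaction -9.09 ± 1.10, edgeR adjusted p = 0.0046). Wdfy1 differed by -1.20 ± 0.19 (adjusted p = 0.035) and the pseudogene Tmem181b-ps by -4.66 ± 0.29 (adjusted p = 3.1e-07). The median of the naïve quiescence list was -2.44 in Aim2-/- beside -2.29 in WT, and that of the Treg signature 3.13 beside 3.40.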

How the data were processed

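RNA was sequenced from 4 Tn and 4 Treg WT libraries, and from 8 Aim2-/- libraries used for the interaction. Per the labels and the study's methods, the authors prepared stranded mRNA libraries, aligned single-end reads to GRCm38 with STAR and quantified them with RSEM. They deposited 1 table of expected counts per library, covering 53090 genes and not normalized. Tool versions and the strand setting were not given in the sources used here. Expected counts were fractional for 8464 genes in some WT library, where reads were shared between genes.

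Values were rounded, and a gene was kept if 4 or more WT libraries had 10 or more counts. TMM factors, the robust quasi-likelihood F test and the test against a 2-fold change came from edgeR 4.0.16 (R 4.3.3), with Benjamini-Hochberg adjustment over all tested genes. The study's own tool, limma-voom (limma 3.58.1), and DESeq2 1.42.0 were alternatives. The level of a list is the mean over tested members of log2 CPM (prior count 2) minus the gene's 8-library mean. Gene positions are from GENCODE M21 and promoters from RefSeq (GRCm38.p6). Code was tested on simulated data.

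Members and lists were chosen with earlier results of these data known. Genes named from a list were its anchor genes, the 2 called members with the largest change each way and, where over 50% of members were called one way, those called the other way. Over all genes they were the 10 largest changes each way with a mean of at least 10 CPM and up to 10 genes each way at the floor in a state. The genes of the Tn split, Ctps, Impdh2, Mcm6, Chac1 and the interaction calls were picked after their values were seen. Alternatives were other scaling factors, filters and tools, the replicate block, all 16 libraries in a fit, leaving out each library, replicates 1 and 2 or 3 and 4 alone and, chosen after seeing the data, leaving out either pair of Tn libraries.

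Some genes are not reported here.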

Additional observations from a re-analysis of the deposited data

Results flagged for a closer look

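A library lay far from the other 3 of its group in 25 of 572 gene and state groups (4.37%, where chance sets apart about 1 in 20), and 13 of the 25 were Treg replicate 4. The cause was not tested.

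Treg replicate 4 lay above the others for Gzmb (7.47 CPM, others 0.450 to 1.15), Il24 (12.4, others 0.870 to 2.13), Ifi211 (25.1, others 1.98 to 5.77), Ifit1 (5.15, others 1.70 to 2.20), Il7r (11.7, others 6.80 to 7.01), Ltb (199.6, others 144 to 151), Bbc3 (6.07, others 4.86 to 4.99) and Uqcrh (174, others 167 to 167.4). It lay below them for Tead1 (42.4 CPM, others 67.6 to 71.6), Nupr1 (17.98, others 30.1 to 32.5), Sesn1 (24.6, others 33.96 to 35.7), Tgif1 (33.8, others 37.7 to 38.0) and Cd79a (0.221, others 0.450 to 0.474). Gzmb, Il24, Ifi211 and Ifit1 encode a cytotoxic protease, a cytokine and products of interferon-responsive genes. Elsewhere in Treg, Eya2 stood apart in replicate 1 (0.575 CPM, others 0.240 to 0.260), Sat1 in replicate 2 (59.7, others 64.9 to 66.0) and Sqstm1 in replicate 3 (99.4, others 104.8 to 105.1).

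In Tn, replicate 1 stood apart for Ccnd3 (237 CPM, others 213 to 216), Id2 (91.5, others 79.7 to 81.4) and Il2rg (583, others 618 to 624), replicate 2 for Ndufa12 (15.6, others 18.6 to 19.2) and Ubash3a (115, others 100.1 to 100.8), replicate 3 for Ccl5 (27.4, others 11.4 to 13.4) and Tead1 (0, others 0.0346 to 0.0403, all under the floor), and replicate 4 for Ctps2 (89.2, others 84.7 to 85.3) and G6pdx (40.5, others 43.8 to 44.4).

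The culture change differed between the genotypes for Ifi211 (-9.09 on the log2 scale, Aim2-/- minus WT), Wdfy1 (-1.20) and Tmem181b-ps (-4.66), by edgeR's test of the interaction.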

How the results depend on the processing

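The number of genes called was 10516 and ranged from 8637 with replicates 3 and 4 alone to 11959 without a filter on low counts, and between 9478 and 10058 when a library was left out. DESeq2 called 10587, limma-voom 10535 and RLE factors 10498. Upper quartile factors called 10583 and moved the median log2 fold change of all genes from -0.05 to -0.17, so that 44.5% of the called genes were higher, against 49.0%. The interaction of culture and genotype was called for 3 genes, for 10 with DESeq2 and for 2 to 5 when a library was left out, 5 without Aim2-/- Tn replicate 1. With the replicate number as a block, 10352 genes and 2 interactions were called. Same-numbered Tn and Treg libraries had correlations of 0.013, 0.148, 0.029 and -0.036 of their deviations from the state means. For libraries with different numbers these ran from -0.097 to 0.076. Such values cannot show whether equal numbers mark a shared mouse or day, and the main test used no pairing.

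The direction of several medians depended on the libraries. Without Tn replicates 1 and 2 the median of the activation-induced factors was 0.27, of the lineage factors 0.033 and of the BCL2 family 0.12. Without Tn replicates 3 and 4 that of the chemokine receptors and integrins was 0.0095 and of the BCL2 family 0.079. With replicates 1 and 2 alone the chemokine receptor and integrin median was 0.13, and with replicates 3 and 4 alone the BCL2 family median was 0.19 and that of the B cell markers 0.38, which was 0.54 with at least 10 counts in every library. The mTOR and PI3K median, -0.01 in the full comparison, ran from -0.027 to 0.12 when a library was left out, and was 0.067 without Treg replicate 3 and 0.12 without Treg replicate 4. Single genes turned too. With replicates 1 and 2 alone, the log2 difference was 0.014 for Acaa2, 0.42 for Ddit4, -0.47 for Odc1, 0.17 for Pik3r1 and -0.67 for Tigit, and without Tn replicates 3 and 4 it was 0.52 for Ddit4, -0.55 for Odc1 and -0.75 for Tigit. Slc3a2 was at 0.72 with replicates 3 and 4 alone and at 0.54 without Tn replicates 1 and 2. The cause was not tested.

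Of the genes named here and in the report, the calls of Acaa2, Calr, Ccnd1, Ccnd3, Gbp2, Glrx, Ighd, Ikzf2, Rps26, Tgif1 and Ubash3a were lost when at least 1 library was left out. Depth limits the genes near the floor, among them Il10, Il2, Il4 and Il17a.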

Other observations

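Of 14 polyamine genes tested, 8 were called higher and 2 lower, with a median log2 fold change of 0.57 that was 1.32 without Tn replicates 1 and 2 and 0.32 without Tn replicates 3 and 4. Sat1, which acetylates polyamines for export, went from 101 ± 9.58 to 64.1 ± 2.98 CPM, and Oaz2, an antizyme that restrains Odc1, from 28.6 ± 2.201 to 13.97 ± 0.599 CPM. Both were called lower.

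Promoter letters of other lists also differed in share from all promoters. The E-box CACGTG (either strand, 250 bases before the start) stood in 25.6% of tRNA synthetase and translation factor promoters, 23.7% of autophagy and lysosome promoters and 6.02% of all, and the medians of these lists were 1.54 and -0.82. The NRF1 letters GCGCANGC stood in 38.5% of the former and 8.30% of all. CCAAT stood in 83.3% of 18 MHC class I promoters, 75.0% of stress response promoters and 62.2% of sterol and fatty acid promoters, against 33.8% of all. The letters CACCCCAC, the core of a sterol response element, stood in 2.70% of sterol and fatty acid promoters and 2.58% of all. These shares are descriptions, and no test was made of them.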
